A study of Mus musculus with 12 samples.

Results

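The cytosolic ribosomal protein genes are the genes whose symbols begin with Rpl, Rplp or Rps and a number, together with Rpsa. Symbols of the ribosomal S6 kinases (Rps6k) and symbols ending in -ps were left out, and a gene had to be present in all 3 tables of expression values. This rule found 88 symbols among the 22364 that the tables share. Of these, 52 belong to the large subunit and 33 to the small subunit, and 3 carry a numbered pseudogene suffix (Rpl34-ps1, Rplp2-ps1 and Rps19-ps3) and are given apart, which leaves 85 genes. Rps19bp1 meets the rule by its spelling but encodes a binding partner of RPS19 and not a ribosomal protein. The small subunit gene Rps3a is named Rps3a1 in 1 table and Rps3a in the other tables, so it is not among the 85.

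RNA sequencing measured polyadenylated transcripts in 12 libraries from cultured C57BL/6 mouse bone marrow cells, in 6 groups of 2. The groups were lineage-negative cells carrying MLL-AF9 with PRDM16 or with PRDM16mut, lineage-negative cells carrying E2A-HLF with PRDM16 or with PRDM16mut, and cells already stably transduced with MLL-AF9 that then received PRDM16 or PRDM16mut. Both fusions, MLL-AF9 and E2A-HLF, cause acute leukaemia, and PRDM16 is a transcriptional regulator of the PRDM family. All cells grew in IMDM with 15% serum and 3 cytokines, IL3, IL6 and SCF, each at 10 ng/ml, and were collected after 10 days under drug. The cotransduced cells were selected with puromycin together with G418, and the stable cells with puromycin alone. Each library is therefore a bulk population of selected cells. The sources used here give neither the vectors nor the change in PRDM16mut. They do not say whether the replicates were separate cultures, so p-values cover just the variation among these libraries, and that variation may be technical.

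The ribosome has a small subunit, which reads the messenger RNA, and a large subunit, which joins amino acids. Each cytosolic ribosome holds a fixed set of ribosomal proteins, most of them in a single copy, assembled onto ribosomal RNA in the nucleolus. Most of their messenger RNAs begin with a C followed by a run of pyrimidines, the TOP motif (terminal oligopyrimidine), through which the kinase mTOR and the protein LARP1 adjust their translation and stability. In human blood, loss of a copy of any of several ribosomal protein genes causes Diamond-Blackfan anaemia, a failure of red cell production.

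Values are FPKM, fragment counts divided by transcript length and by library size, so that levels can be set side by side between genes. A log2 fold change is PRDM16 minus PRDM16mut on the log2(FPKM + 1) scale, fitted with limma in each experiment over every gene that reached an FPKM of 1 in 2 or more of its 4 libraries. Calls were made where the p-value, adjusted over those genes by Benjamini-Hochberg, was under 0.05. In each experiment 81 of the 85 genes were tested. Rpl10l, Rpl39l and Rps4y2 reached an FPKM of 1 in no library, and the heart and muscle paralogue Rpl3l stood between 0.303 and 1.04. Read counts are not in the tables, so the depth of the libraries is unknown.

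All 7 listed blood cell markers were tested in each experiment, with summed FPKM of 753 to 1712. B cell markers summed to 3.21 to 10.4 FPKM and T cell markers to 1.36 to 4.12 FPKM. Stromal markers summed to 189.5 and 201 FPKM with PRDM16 in the E2A-HLF cotransduction, most of it Vcam1, and to 0.791 to 10.6 FPKM in the other libraries. Prdm16 stood at 83.9 and 119 FPKM with PRDM16 and at 29.5 and 30.1 with PRDM16mut in the MLL-AF9 cotransduction, and at 43.5 to 94.6 FPKM in the 8 other libraries, where reads of the 2 forms cannot be told apart. The precursor of ribosomal RNA, Rn45s, was at 0 in the PRDM16 libraries of the MLL-AF9 cotransduction, against 1542 and 1554 FPKM in its PRDM16mut libraries and 941 to 1451 FPKM in the other experiments. The part of these values in the results was not tested.

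The ribosomal protein genes were among the most abundant transcripts of all libraries. Of the 85, 70 or 71 stood at 500 FPKM or above in every library, and between 54 and 63 of the 100 most abundant genes of a library were ribosomal protein genes. The highest was Rplp1, an acidic protein of the ribosomal stalk, in every library, with 4951 to 6822 FPKM. Rps12 and Rpl41 were among the 5 highest in every library as well. At the low end, Rps27, Rpl34, Rpl30, Rpl7l1 and Rps19bp1 stood under 100 FPKM in every library.

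In the MLL-AF9 cotransduction, the ribosomal protein genes made up 26.3% and 26.1% of the summed FPKM with PRDM16, against 20.4% and 20.4% with PRDM16mut. The mean share was 26.2% ± 0.178 with PRDM16 and 20.4% ± 0.0104 with PRDM16mut (SD, n = 2 each), a difference of 5.74 percentage points. The groups did not overlap, and the exact two-sided permutation p was 0.333, the smallest that 2 against 2 libraries can give. The FPKM summed over all other genes was 503507 and 497310 with PRDM16 and 502180 and 495355 with PRDM16mut, so these sums overlapped between the groups. They take in the neutrophil granule genes, which summed to 1159 and 1098 FPKM with PRDM16, against 56926 and 55867 FPKM with PRDM16mut. The overlap rests on counting these granule genes.

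The shares of the other experiments lay closer together. In the E2A-HLF cotransduction the ribosomal protein genes held 23.5% and 23.8% with PRDM16, against 24.1% and 24.6% with PRDM16mut, a difference of -0.748 points (exact permutation p = 0.333). In the MLL-AF9 stable cells they held 22.3% and 22.4% with PRDM16, against 21.3% and 22.0% with PRDM16mut, a difference of 0.683 points (exact permutation p = 0.333). That difference was 0.335 points without PRDM16mut replicate 1 and 1.03 points without PRDM16mut replicate 2. For the E2A-HLF cotransduction the difference was -0.497 points without PRDM16mut replicate 2.

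**Figure D1:**
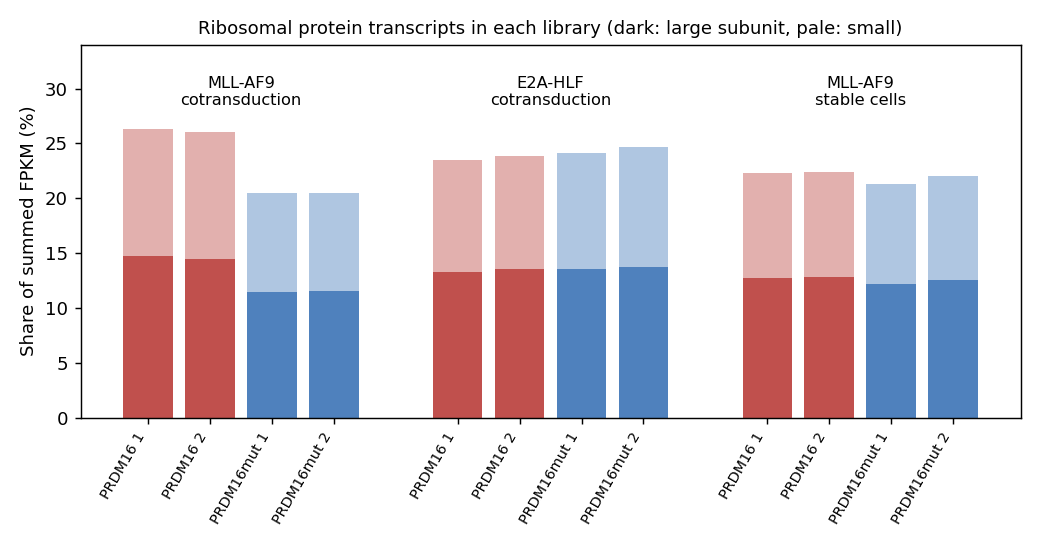
Share of the summed FPKM of each library (y axis, %) held by large subunit genes (dark) and small subunit genes (pale), 1 bar per library, with PRDM16 in red and PRDM16mut in blue. The 2 PRDM16 bars of the MLL-AF9 cotransduction reach 26.3% and 26.1%, above every other bar, and its PRDM16mut bars at 20.4% are the lowest.

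Large and small subunit genes kept nearly the same balance. Their summed FPKM stood in a ratio of 1.26 ± 0.0147 with PRDM16 and 1.28 ± 0.00464 with PRDM16mut in the MLL-AF9 cotransduction, of 1.31 ± 0.00858 and 1.27 ± 0.0106 in the E2A-HLF cotransduction, and of 1.33 ± 0.0108 and 1.33 ± 0.00115 in the stable cells (SD, n = 2 each, PRDM16 before PRDM16mut). The exact permutation p of the ratio was 0.333 in both cotransductions and 1 in the stable cells.

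In the MLL-AF9 cotransduction, 72 of the 81 tested genes rose with PRDM16, which is 88.9% of them, and Rpl7l1 alone fell. Over all 11071 genes tested in that experiment 69.5% were called, 35.6% higher and 34% lower. Among large subunit genes 43 of 49 rose and 1 fell, with a median log2 fold change of 0.42. Among small subunit genes 29 of 32 rose and none fell, with a median of 0.47. The median over all genes tested was 0.01. Both PRDM16 libraries lay above both PRDM16mut libraries for 76 of the 81 genes and below them for 1. Over all genes 43.6% lay above in this way and 86.3% lay above or below. In bulk RNA, more transcript per cell and more cells of a type that is rich in these transcripts cannot be told apart.

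The sizes of these changes were moderate and much alike. The ratio of mean FPKM ranged from 0.766 for Rpl7l1 to 1.95 for Rpl14, with a median of 1.35. Log2 fold changes of 51 of the 81 genes lay between 0.3 and 0.6, those of 10 genes lay above and those of 20 below.

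**Figure D2:**
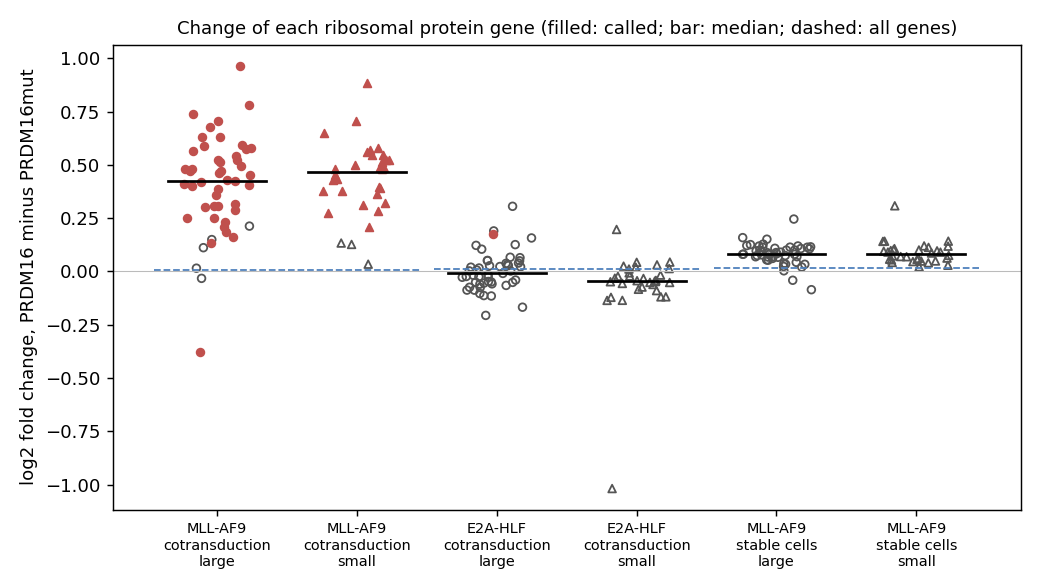
Log2 fold change, PRDM16 minus PRDM16mut (y axis), of each tested gene by experiment and subunit, with circles for the large and triangles for the small subunit. Filled points were called, black bars are medians over the subunit and dashed lines the median of all genes tested. The points of the MLL-AF9 cotransduction sit around medians of 0.42 and 0.47, and those of the other experiments sit around medians from -0.04 to 0.08.

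The largest increase was that of Rpl14, a large subunit protein. Rpl14 had 1809.7 and 1756 FPKM with PRDM16, against 914 and 912 FPKM with PRDM16mut, a log2 fold change of 0.96 (95% interval 0.85 to 1.08, limma adjusted p = 4.4e-05). The groups stood far apart relative to the distance between replicates. Rps20, a protein of the small subunit's head, had 5333 and 4914 FPKM with PRDM16, against 2779 and 2776 FPKM with PRDM16mut (log2 fold change 0.88). Rpl10a, a protein of the stalk on the large subunit that borders the exit site of transfer RNA, had 1798 and 1837 FPKM with PRDM16, against 1059.96 and 1058 FPKM with PRDM16mut (0.78). Rps28, a small subunit protein mutated in some patients with Diamond-Blackfan anaemia, had 4953 and 4583 FPKM with PRDM16, against 2913 and 2920.4 FPKM with PRDM16mut (0.71). None of these genes overlapped between the groups.

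At the other end were called genes with small changes. Rpl15 had 626 and 620.4 FPKM with PRDM16, against 574 and 564 FPKM with PRDM16mut (log2 fold change 0.13, limma adjusted p = 0.048). Rpl31 had 1079.7 and 1015 FPKM with PRDM16, against 943 and 927 FPKM with PRDM16mut (0.16, adjusted p = 0.039). Rpl7a had 1665 and 1727 FPKM with PRDM16, against 1455 and 1475 FPKM with PRDM16mut (0.21, adjusted p = 0.012). These are structural proteins of the large subunit, and their replicates did not overlap between the groups. The calls of Rpl15 and Rpl31 were lost under size factors, and those of Rpl15, Rpl31 and Rpl7a under TPM or quantile normalization, without a filter on low values and without either PRDM16mut replicate.

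Of the tested genes, 8 did not pass the test in the MLL-AF9 cotransduction. Rps3, which lines the mRNA entry channel, stood at 926 and 918 FPKM with PRDM16, against 853 and 837 FPKM with PRDM16mut (log2 fold change 0.13, limma adjusted p = 0.054). Rpl13a had 0.15 (adjusted p = 0.054), Rpl30 had 0.21 (0.085) and Rps19bp1 had 0.13 (0.068). Rpsa, which is also known as the 67-kDa laminin receptor, stood at 1369.6 and 1531 FPKM with PRDM16, against 1423 and 1406 FPKM with PRDM16mut, so its groups overlapped. Rpl22l1, Rpl34 and Rpl26 overlapped as well, and the 95% interval of Rpl26 ran from -1.03 to 1.06.

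**Figure D3:**
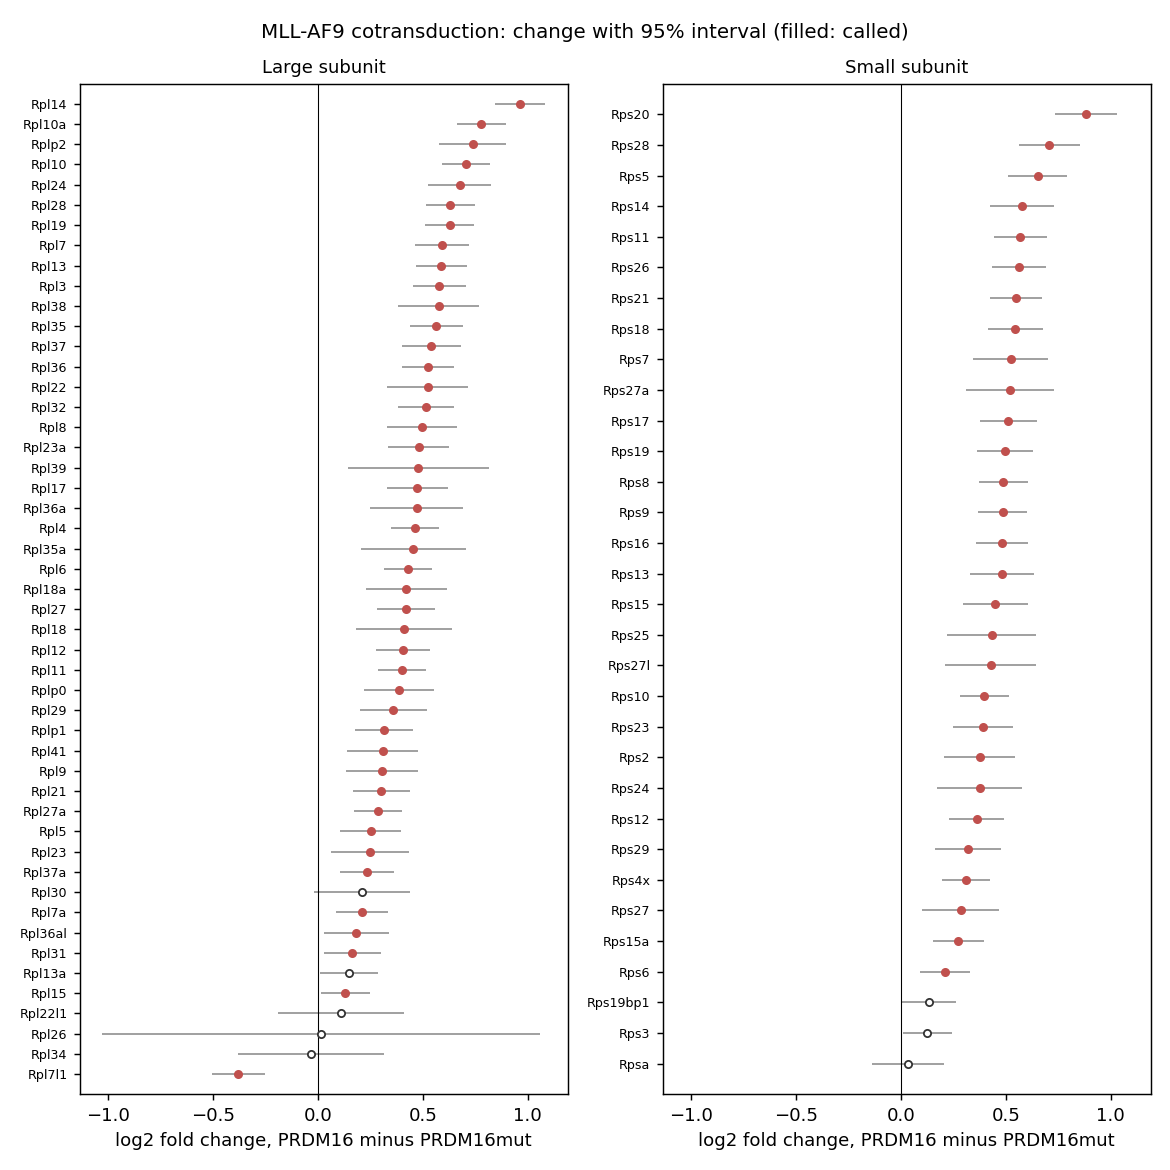
Log2 fold change, PRDM16 minus PRDM16mut, in the MLL-AF9 cotransduction (x axis) of each tested gene, with its 95% interval as a bar, large subunit on the left and small subunit on the right, ordered by size. Filled points were called. Rpl14 at 0.96 and Rps20 at 0.88 top their columns, and Rpl7l1 at -0.38 is the one called gene left of 0.

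The ribosomal stalk binds the elongation factors and is built on Rplp0, which carries dimers of the acidic proteins Rplp1 and Rplp2 and sits beside Rpl12. All 4 genes rose in the MLL-AF9 cotransduction, as did 88.9% of the 81 ribosomal protein genes and 35.6% of all genes. Rplp2 had 1585 and 1742 FPKM with PRDM16, against 1009 and 983 FPKM with PRDM16mut (log2 fold change 0.74, limma adjusted p = 0.00029). The scaffold Rplp0 and the others of the stalk changed by less in value. Rplp0 had 2479 and 2757 FPKM with PRDM16, against 2013 and 1986 FPKM with PRDM16mut (0.39, adjusted p = 0.0039). Rplp1 had 6521 and 6822 FPKM with PRDM16, against 5490.1 and 5225 FPKM with PRDM16mut (0.32, adjusted p = 0.0041). Rpl12 had 2378 and 2471 FPKM with PRDM16, against 1862 and 1801 FPKM with PRDM16mut (0.40, adjusted p = 0.0012). Rplp2 thus changed by more than its partner Rplp1 in log2 terms, although Rplp1 was the more abundant transcript per length. None of the 4 was called in the other experiments, where their log2 fold changes ran from -0.11 to 0.13.

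Of the ribosomal proteins known to bind MDM2, the ubiquitin ligase of p53, all 8 listed genes rose in the MLL-AF9 cotransduction, as did 88.9% of the 81 ribosomal protein genes and 35.6% of all genes. Rpl5 and Rpl11 form a particle with 5S ribosomal RNA before they join the large subunit. Rpl5 had 866 and 803 FPKM with PRDM16, against 694 and 707 FPKM with PRDM16mut (log2 fold change 0.25, limma adjusted p = 0.011). Rpl11 had 2827 and 2792 FPKM with PRDM16, against 2135 and 2119 FPKM with PRDM16mut (0.40, adjusted p = 0.00083). Both groups of libraries were apart for each gene. The other large subunit gene of the list, Rpl23, had a log2 fold change of 0.25, and of the small subunit genes Rps14 had 0.58, Rps7 0.52, Rps25 0.43, Rps27l 0.43 and Rps27 0.28. The calls of Rpl5 and Rpl23 were lost under TPM, and those of Rpl11 and Rpl23 under quantile normalization. The median over the 8 genes was 0.42, beside 0.43 over all 81 ribosomal protein genes.

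Of the 19 listed genes mutated in human Diamond-Blackfan anaemia, 4 of them also in the list above, 18 rose in the MLL-AF9 cotransduction and none fell, with a median of 0.40, beside the same 88.9% and 35.6%. Rpl26 was the exception, at 150 and 62.6 FPKM with PRDM16 and 111 and 83.2 FPKM with PRDM16mut. Rps19, the gene most often mutated in that disease, had 1728 and 1753 FPKM with PRDM16, against 1268 and 1196 FPKM with PRDM16mut (log2 fold change 0.50). None of the 19 was called in the E2A-HLF cotransduction or in the stable cells, where their medians were -0.03 and 0.10. At an unadjusted p under 0.05 there were 0 and 5, beside 5743 of 11010 and 3042 of 10580 genes in all.

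The first bases of the transcripts are shown because the TOP motif lies there. RefSeq (build GRCm38.p6, while the deposited values were made on mm9) gave promoter sequences for 64 of the 85 genes, on 17 chromosomes, with at most 11 of them on chromosome 7. A C at an annotated start followed by at least 4 more C or T was present in 13 of the 64 genes (20.3%), against 813 of the 27025 genes in the table (3.01%). Annotated starts can miss the start used in these cells by some bases, and a gene without such a run here may hold one nearby. Each line below holds 30 bases, 15 before the start and 15 from it on, with the run of pyrimidines from the start in capitals.
Rpl14, chr9:120571502-120571531, + strand: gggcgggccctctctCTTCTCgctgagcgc
Rplp2, chr7:141447636-141447665, + strand: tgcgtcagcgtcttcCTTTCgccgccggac
Rpl28, chr7:4792950-4792979, + strand: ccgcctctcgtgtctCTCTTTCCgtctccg
Rpl38, chr11:114668565-114668594, + strand: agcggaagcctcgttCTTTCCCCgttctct
Rpl35, chr2:39005117-39005146, - strand: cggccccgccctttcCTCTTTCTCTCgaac
Rps18, chr17:33955651-33955680, - strand: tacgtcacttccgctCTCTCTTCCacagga
Rps6, chr4:86857353-86857382, - strand: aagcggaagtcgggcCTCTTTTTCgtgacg
Rpl15, chr14:18270972-18271001, - strand: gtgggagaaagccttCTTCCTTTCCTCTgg
Genes not shown had runs of 5 bases (Rps21, log2 fold change 0.55), 8 (Rpl35a, 0.45), 10 (Rps10, 0.40), 7 (Rps27, 0.28) and 8 (Rps15a, 0.27). A relation of run length and change was not tested. Rpl14, with the largest change, had a run of 6 bases, and Rpl15, with the smallest increase called, had a run of 13. In the MLL-AF9 cotransduction 88.9% of the 81 ribosomal protein genes and 35.6% of all genes rose with PRDM16. All 13 genes with such a run at an annotated start rose there. Their log2 fold changes had a median of 0.55 and a range of 0.13 to 0.96. Of the 48 tested genes with a RefSeq promoter and no such run, 40 rose, with a median of 0.40 and a range of -0.38 to 0.78.

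Letters upstream of the start were searched on both strands over 250 bases before and 50 bases after each annotated start. CCGGAAG, the core of sites bound by ETS factors such as GABP, occurred at 25 of the 64 genes (39.1%), against 9.93% of all genes. AAGATGG, the core of YY1 sites, occurred at 10 (15.6%), against 7.28% of all genes. TATAAA occurred at 7 (10.9%), against 15.7% of all genes. The first and second of these can share the letters AAG. The matches are descriptions of the sequence and not of binding. Examples of CCGGAAG, or of its reverse complement, before the start are given below with the match in capitals.
Rplp2, chr7:141447531-141447560, + strand: ggaaatgtcttcCTTCCGGtgcaccctttt
Rpl19, chr11:98026659-98026688, + strand: gacttagcgtgaCTTCCGGctacccagagg
Rpl38, chr11:114668548-114668577, + strand: ggggttaaccgtCCGGAAGcggaagcctcg
Rps18, chr17:33955723-33955752, - strand: gagaagcaatttCCGGAAGtggacctccgg

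With E2A-HLF, 1 of the 81 genes rose and none fell, against 43.8% of all 11010 genes tested (22.7% higher, 21.1% lower). Lower genes came to 8 under quantile normalization, 5 under TPM and 9 with an equal sum outside the ribosomal protein genes, the last chosen after seeing the data. In these settings 5059, 4634 and 4732 of all genes were called, 44.7%, 45.1% and 41.8% of them higher. At an unadjusted p under 0.05 there were 2 genes, Rpl7l1 and Rpl34. The median log2 fold change was -0.01 over the large subunit and -0.04 over the small subunit, beside 0.01 over all genes. Both PRDM16 libraries lay above both PRDM16mut libraries for 11 genes and below them for 13, against 38.4% above and 73.7% above or below over all genes. Without PRDM16mut replicate 2 the medians were 0.037 and 0.0090. Rpl14 had 1189.7 and 1209 FPKM with PRDM16, against 1169 and 1263 FPKM with PRDM16mut (log2 fold change -0.02). Rps20 had 3148 and 3137 FPKM with PRDM16, against 3318 and 3524 FPKM with PRDM16mut (-0.12). The PRDM16 libraries of Rps20 lay below those of PRDM16mut, and those of Rpl14 lay between them, while neither was called.

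In the MLL-AF9 stable cells none of the 81 genes was called by limma, against 6.36% of all 10580 genes tested (4.2% higher, 2.16% lower), and 15 reached an unadjusted p under 0.05, beside 3042 of all genes. Of the calls over all genes 66.0% were higher with PRDM16, but 51.6% under quantile normalization and 34.2% under TPM. The median log2 fold change was 0.08 over the large and 0.08 over the small subunit, beside 0.01 over all genes, and 79 of the 81 were positive, beside 5918 of the 10580. Under quantile normalization the medians were 0.033 and 0.027, and under TPM 0.042 and 0.041. Both PRDM16 libraries lay above both PRDM16mut libraries for 67 of the 81 genes and below them for 1, against 35.1% above and 60.6% above or below over all genes. Without PRDM16mut replicate 1 the medians were 0.047 and 0.037, and without PRDM16mut replicate 2 they were 0.12 and 0.12. The smallest adjusted p was that of Rpl22l1 at 0.055, with 167 and 169 FPKM with PRDM16, against 147 and 154 FPKM with PRDM16mut (log2 fold change 0.16). Rpl14 had 1148 and 1104 FPKM with PRDM16, against 1047 and 1100.2 FPKM with PRDM16mut (0.07).

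**Figure D4:**
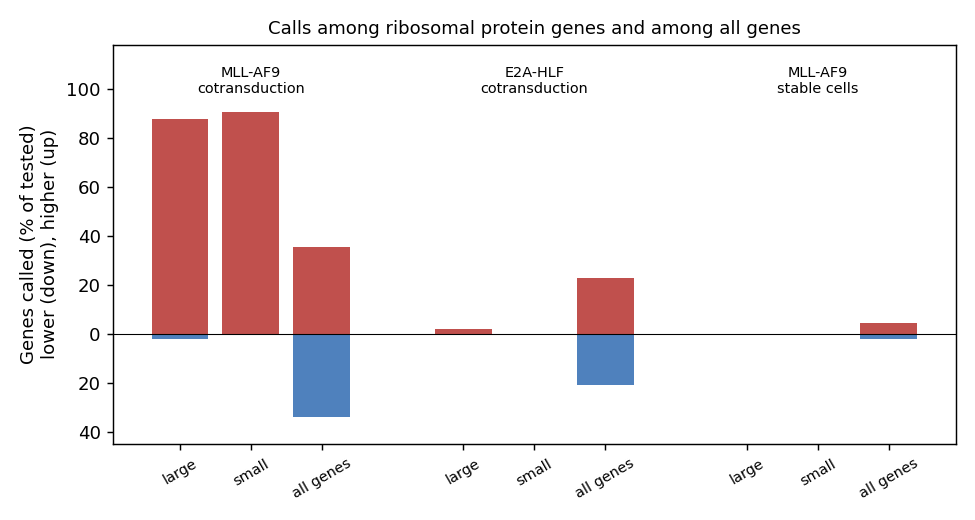
Percent of tested genes called higher (red, above 0) and lower (blue, below 0) with PRDM16, for large subunit, small subunit and all genes in each experiment. In the MLL-AF9 cotransduction 87.8% of large and 90.6% of small subunit genes were higher, against 35.6% of all genes. In the stable cells no ribosomal protein gene was called.

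The change differed between experiments by its own test, a contrast of contrasts in one limma fit of all 12 libraries over 9488 genes. The change in the MLL-AF9 cotransduction differed from that in the E2A-HLF cotransduction for 68 of the 81 genes, of which 67 were larger in the MLL-AF9 cotransduction. Over all genes 71.4% differed and 32.7% were larger in the MLL-AF9 cotransduction. Against the stable cells 60 genes differed, 59 of them larger in the MLL-AF9 cotransduction, beside 64% and 30.6% of all genes. Between E2A-HLF and the stable cells 3 genes differed, 1 of them (Rpl7l1) larger with E2A-HLF and 2 (Rps16 and Rps28) smaller, beside 37.1% of all genes that differed and 20.2% that were larger with E2A-HLF. The contrasts share libraries and are not independent of each other. The median difference was 0.48 against the E2A-HLF cotransduction and 0.36 against the stable cells on the log2 scale, beside -0.05 and -0.02 over all genes. Under quantile normalization the 3 counts were 40, 34 and 12, and under TPM the last was 14. The shares over all genes in these settings are not given here.

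Among the differences that passed, those of Rps20 and Rpl14 were the largest. The difference of Rps27 between the cotransductions was larger in value, at 1.30, and did not pass (limma adjusted p = 0.44), nor did its -1.33 for E2A-HLF relative to the stable cells (adjusted p = 0.51). The change of Rps20 was larger in the MLL-AF9 cotransduction by 1.004 than in the E2A-HLF cotransduction (limma adjusted p = 2e-06) and by 0.83 than in the stable cells (adjusted p = 1.33e-05). For Rpl14 these differences were 0.98 and 0.90. The smallest differences that passed were those of Rps3 against the E2A-HLF cotransduction, at 0.18 (adjusted p = 0.025), and of Rpl27a and Rpl7a against the stable cells, at 0.19 each. Under quantile normalization the difference of Rpl7a was -0.028, and that of Rplp1 against E2A-HLF was -0.087, against 0.21 as fitted.

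No other gene of the 81 was called outside the MLL-AF9 cotransduction, so only Rpl7l1 could be called in opposite directions, and it was. It is the paralogue of Rpl7, and its yeast counterpart Rlp7 acts in assembly of the large subunit and is not kept in the finished ribosome. In the MLL-AF9 cotransduction Rpl7l1 had 56.2 and 55.2 FPKM with PRDM16, against 73.4 and 72.0 FPKM with PRDM16mut (log2 fold change -0.38, limma adjusted p = 0.0014). With E2A-HLF it had 66.8 and 67.6 FPKM with PRDM16, against 57.8 and 61.0 FPKM with PRDM16mut (0.18, adjusted p = 0.024). In the stable cells it had 62.6 and 61.6 FPKM with PRDM16, against 62.9 and 65.0 FPKM with PRDM16mut (-0.04, not called). All 3 differences between experiments passed the test for this gene. The call in the E2A-HLF cotransduction was lost without PRDM16 replicate 1, PRDM16 replicate 2 or PRDM16mut replicate 1, under quantile normalization and without a filter on low values.

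Its parent Rpl7, a protein that contacts 5S ribosomal RNA, rose in the MLL-AF9 cotransduction, with 2459 and 2337 FPKM in PRDM16 libraries against 1579 and 1598 FPKM in PRDM16mut libraries. Rpl7l1 therefore stood at 2.32% of Rpl7 with PRDM16 and at 4.58% with PRDM16mut. The ratio was 3.41% and 2.91% in the E2A-HLF cotransduction and 3.78% and 3.99% in the stable cells, with PRDM16 before PRDM16mut.

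The balance of other paralogue pairs also differed in value in the MLL-AF9 cotransduction. Rpl22l1, which can replace its parent Rpl22 in the large subunit, stood at 41.0% of Rpl22 with PRDM16 and at 54.6% with PRDM16mut. Rpl22 had 324 and 283 FPKM with PRDM16, against 209 and 212 FPKM with PRDM16mut (log2 fold change 0.52, limma adjusted p = 0.0021). Rpl22l1 had 140.1 and 109.7 FPKM with PRDM16, against 116 and 113 FPKM with PRDM16mut, and its groups overlapped. Rpl36al, whose product is nearly identical to that of Rpl36a, stood at 41.7% of Rpl36a with PRDM16 and at 50.9% with PRDM16mut. Rpl36al rose less (0.18, adjusted p = 0.041) than Rpl36a (0.47, adjusted p = 0.0053) in value. The call of Rpl36al was lost under size factors and under TPM. For each of these ratios the exact permutation p was 0.333, the smallest possible. With E2A-HLF the balance of Rpl36al lay the other way, at 49.9% of Rpl36a with PRDM16 and 43.8% with PRDM16mut (exact permutation p = 0.333), while Rpl22l1 stood at 59.7% and 61.3% of Rpl22 and overlapped. In the stable cells Rpl22l1 stood at 63.2% of Rpl22 with PRDM16 and 59.95% with PRDM16mut, and Rpl36al at 62.2% and 63.1% of Rpl36a.

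Some genes share their sequence with near-identical copies, and their own values are uncertain. Rpl34 stood at 42.1 to 56.2 FPKM in every library, whereas the pseudogene entry Rpl34-ps1 stood at 1972 to 2712 FPKM. Rpl34-ps1 rose in the MLL-AF9 cotransduction, with 2712 and 2574 FPKM with PRDM16 and 2043 and 1989 FPKM with PRDM16mut (log2 fold change 0.39, limma adjusted p = 0.0015), a change near the median of the large subunit. Rps27 stood at 6.67 to 10.0 FPKM in 9 of the 12 libraries, while it read 45.2 FPKM in PRDM16mut replicate 1 of the E2A-HLF cotransduction, 78.0 FPKM in PRDM16 replicate 1 of the stable cells and 47.5 FPKM in PRDM16mut replicate 2 of the stable cells. Its paralogue Rps27l, a p53 target, stood at 509 to 750.1 FPKM throughout. The low point at -1.02 in the plot of log2 fold changes is Rps27 in the E2A-HLF cotransduction, whose groups overlapped.

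The gene that changed its name between tables was also called. Rps3a1 had 2322 and 2135 FPKM with PRDM16, against 1837 and 1837 FPKM with PRDM16mut in the MLL-AF9 cotransduction (log2 fold change 0.28, limma adjusted p = 0.0088). Rps3a had log2 fold changes of -0.03 in the E2A-HLF cotransduction and 0.07 in the stable cells, neither of them called.

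Further proteins of the small subunit stand under other symbols. Fau, which encodes RPS30 fused to a ubiquitin-like protein, had 2398 and 2489 FPKM with PRDM16, against 1782 and 1776 FPKM with PRDM16mut in the MLL-AF9 cotransduction (log2 fold change 0.46, limma adjusted p = 0.00062). Gnb2l1, now called Rack1, a scaffold on the small subunit, had 1935 and 2152 FPKM with PRDM16, against 1331 and 1332 FPKM with PRDM16mut (0.62). Together with Rps27a, which is one of the 85 and is made as a ubiquitin fusion, 3 of 3 genes of this list rose, beside 35.6% of all genes. None was called in the other experiments, beside 43.8% of all genes with E2A-HLF and 6.36% in the stable cells.

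The other listed TOP messenger RNAs are mostly elongation and initiation factors. With MLL-AF9 cotransduced, 21 of 31 rose and 4 fell, beside 35.6% and 34% of all genes, with a median of 0.36. Eif3f, a subunit of initiation factor 3, had 382 and 395 FPKM with PRDM16, against 211 and 204 FPKM with PRDM16mut (log2 fold change 0.90). Tpt1, the translationally controlled tumour protein, had 4006 and 3684 FPKM with PRDM16, against 2199 and 2178 FPKM with PRDM16mut (0.81). Elongation factor Eef1a1 had 0.57 and Eef2 had 0.76, while Eif4a2, Eif2s3x, Eif3a and the snoRNA host Gas5 fell, by 0.71, 0.42, 0.39 and 0.33. Fau and Gnb2l1 belong to this list too. With E2A-HLF, 3 of the 31 rose (Eif3a, Eif2s3x and Pabpc4), and in the stable cells 1 rose (Snhg8), beside 22.7% and 4.2% of all genes that rose. Eif3a and Eif2s3x were thus called in opposite directions in the cotransductions, as Rpl7l1 was.

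**Figure D5:**
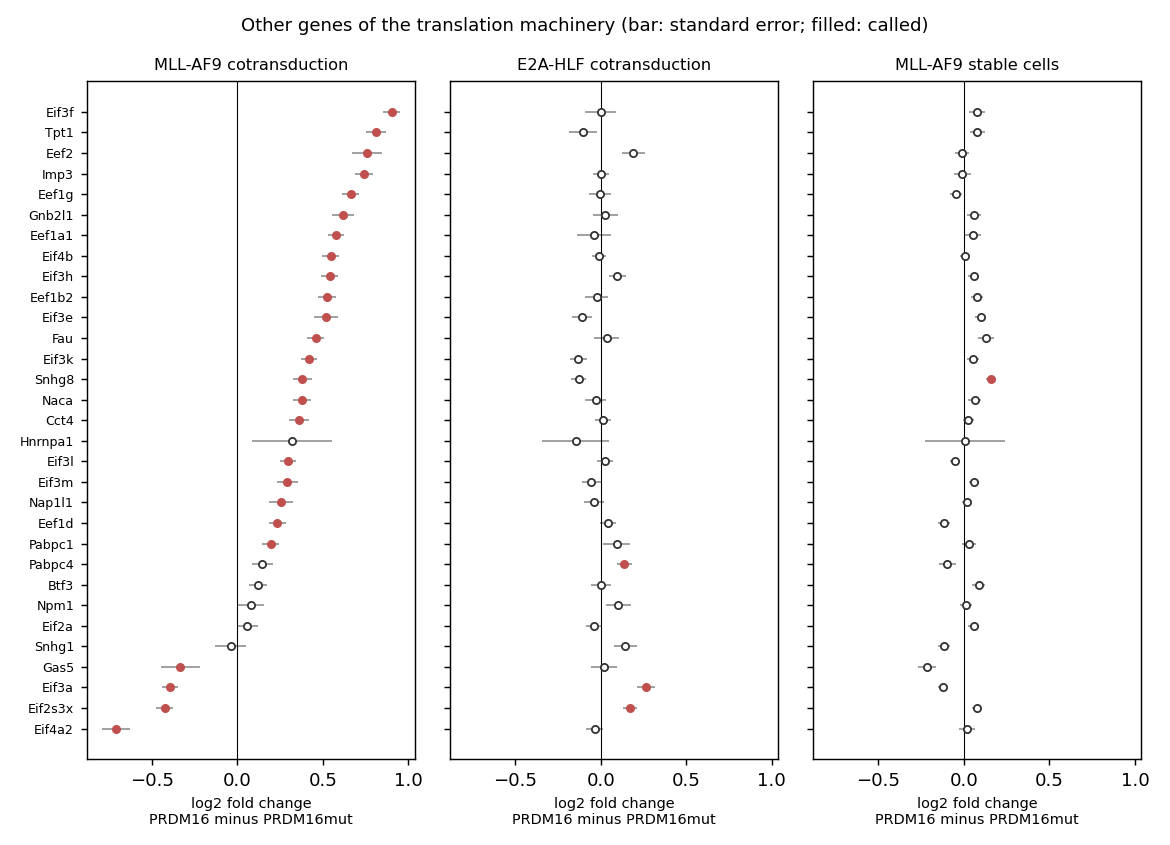
Log2 fold change, PRDM16 minus PRDM16mut (x axis), of the 31 other listed TOP messenger RNAs in the 3 experiments, ordered by the MLL-AF9 cotransduction, with standard errors as bars and called genes filled. In the MLL-AF9 cotransduction 21 were called higher and 4 lower, in the E2A-HLF cotransduction 3 higher and in the stable cells 1 higher.

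Mitochondrial ribosomal protein genes build the separate ribosome of the mitochondria. Their share of calls was smaller than that of the cytosolic genes in the MLL-AF9 cotransduction only. Of 76 tested, 28 rose and 9 fell in the MLL-AF9 cotransduction, beside 35.6% and 34% of all genes, and their log2 fold changes had a median of 0.10. With E2A-HLF 13 rose and 3 fell, beside 22.7% and 21.1% of all genes. In the stable cells 2 rose and 1 fell, beside 4.2% and 2.16%. Of the 81 cytosolic genes, 1 was called with E2A-HLF and 0 in the stable cells.

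Of 18 listed genes of the mTOR pathway and of TOP control, 4 rose and 8 fell in the MLL-AF9 cotransduction, beside 35.6% and 34% of all genes. The genes that rose were Eif4ebp1, a translation repressor that mTOR inactivates, its relative Eif4ebp3, and the stress-induced mTOR inhibitors Ddit4 and Sesn2. Eif4ebp1 had 104 and 121 FPKM with PRDM16, against 64.4 and 60.5 FPKM with PRDM16mut (log2 fold change 0.84), and Ddit4 had 50.6 and 50.6 FPKM with PRDM16, against 22.5 and 22.1 FPKM with PRDM16mut (1.15). The S6 kinases Rps6kb1 and Rps6kb2 fell by 0.50 and 0.62, and Larp1 fell by 0.20 (limma adjusted p = 0.046). With E2A-HLF 8 of the 18 rose and 1 fell, beside 22.7% and 21.1% of all genes, and in the stable cells 1 rose and 1 fell, beside 4.2% and 2.16%.

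Of the listed chaperones and import factors of ribosomal proteins, 7 of 17 rose and 4 fell in the MLL-AF9 cotransduction, beside 35.6% and 34% of all genes. Naca, Nap1l1 and Btf3 are also in the list of other TOP messenger RNAs, and Naca and Nap1l1 are counted among the genes that rose in both. Grwd1, a chaperone of Rpl3, had 23.0 and 24.1 FPKM with PRDM16, against 17.3 and 17.6 FPKM with PRDM16mut (log2 fold change 0.41). The importins Ipo7 and Kpnb1 fell by 0.38 and 0.35. Of 11 ribosome quality control genes 2 rose and 5 fell, with Rnf10, a ubiquitin ligase of the small subunit, at 0.98 and Ltn1 and Nemf, which clear stalled chains from the large subunit, at -0.56 and -0.55. Of 6 genes of the p53 circuit that senses free ribosomal proteins, 2 rose and 3 fell. Trp53 and its target Cdkn1a rose by 0.64 and 0.92, and the p53 inhibitors Mdm4 and Mdm2 and the ubiquitin ligase Huwe1 fell by 1.29, 0.16 and 0.42. In the E2A-HLF cotransduction the counts for chaperones, quality control and p53 circuit were 4, 4 and 2 higher and 1, 0 and 1 lower, of 16, 11 and 6 tested. In the stable cells they were 0, 1 and 1 higher and 1, 1 and 0 lower. Over all genes 22.7% were higher and 21.1% lower with E2A-HLF, and 4.2% and 2.16% in the stable cells.

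Markers of cell types moved with the change in the MLL-AF9 cotransduction, where 35.6% of all genes rose and 34% fell. All 10 neutrophil granule genes fell, and their FPKM summed to 1159 and 1098 with PRDM16, against 56926 and 55867 with PRDM16mut. All 7 mast cell genes fell, with sums of 111 and 104 with PRDM16, against 2147 and 2130 with PRDM16mut. Many of these genes, but not all, encode proteases and other granule contents of the 2 cell types. All 7 erythroid genes tested of 11 rose, with sums of 1236 and 1059 with PRDM16, against 192 and 170 with PRDM16mut. Of 7 macrophage genes 5 rose and 1 fell, with sums of 5163 and 5228 with PRDM16, against 2146 and 2160 with PRDM16mut. All 10 cell division genes fell, with sums of 378 and 375 with PRDM16, against 699 and 706 with PRDM16mut. None of these lists had a defining marker at 0 in all 4 libraries.

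These markers bear on the share, since neutrophil granule genes take a large part of the PRDM16mut libraries. With neutrophil granule and mast cell genes left out of the sum, the ribosomal protein genes held 26.4% and 26.1% with PRDM16, against 22.5% and 22.5% with PRDM16mut, a difference of 3.69 points instead of 5.74. This alternative was chosen after seeing the data. With the FPKM of all genes outside the ribosomal protein genes set to an equal sum, again chosen after seeing the data, the same 72 genes were higher, 73 in all. Those sums already lay close together, so this scaling could change little, and the median of all genes shifted by -0.0026.

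With E2A-HLF the neutrophil granule markers moved the other way. There 6 of 7 tested neutrophil granule genes rose, beside 22.7% of all genes. The neutrophil granule sums were 1932 and 1847 with PRDM16, against 673 and 688 with PRDM16mut, in libraries of 578179 to 612952 FPKM in all. Of 5 mast cell genes tested 4 rose and 1 fell, and of 5 macrophage genes 3 rose and 2 fell. Of 9 erythroid genes tested 3 rose and 1 fell, with sums of 486 and 492 with PRDM16, against 838 and 940 with PRDM16mut. The part of these markers in the shares was not tested. The cell division list had no call, beside 43.8% of all genes, with sums of 650 and 651 with PRDM16, against 601 and 622 with PRDM16mut. In the stable cells the neutrophil granule sums were 15394 and 15527 with PRDM16, against 14695 and 15292 with PRDM16mut. There 3 of 10 genes fell (Mpo by 0.45, Camp by 0.36 and Chi3l3 by 0.27) and none rose, beside 2.16% and 4.2% of all genes.

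Level and length were set beside the change as well. Among the 81 genes of the MLL-AF9 cotransduction, which share their libraries, the Spearman correlation of log2 fold change was 0.46 with mean FPKM and -0.05 with transcript length. Among all other genes at a mean of 500 FPKM or above, 66 of 116 rose and 29 fell, at a median of 0.29, while genes between 1 and 10 FPKM had a median of -0.04. Other genes under 800 bases long had a median of 0.11 and those of 3000 bases or longer a median of -0.12. The ribosomal protein genes had a median length of 711.5 bases and median log2 fold changes of 0.42 and 0.47. Their median level was 1475 to 1990 FPKM in these libraries, so the group at 500 FPKM or above is not matched in level. Level and length were not matched together. The part of level, length and cell type in the result was not tested.

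After quantile normalization, which forces the same distribution of FPKM on every library, 37 genes were higher and 4 lower in the MLL-AF9 cotransduction. Over all genes 7651 of 11071 were called in that setting, 51.1% of them higher. The medians were 0.15 and 0.14 for the large and small subunit, beside 0.0080 over all genes. Rpl15, Rpl7a and Rplp0 stood at -0.0099, -0.0094 and -0.0021. Without a filter on low values 41 genes were higher, beside 6926 of all 23309 genes that were called, 50.4% of them higher. Large and small subunit medians were 0.41 and 0.45 without PRDM16mut replicate 2, and 0.44 and 0.48 without PRDM16mut replicate 1. Without PRDM16 replicate 1 they were 0.43 and 0.43.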

How the data were processed

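The authors deposited FPKM in 3 tables, 1 for each experiment, in which rows are gene symbols and 4 columns are libraries. Per the submitters' processing notes, Bowtie2 2.0.0.7, TopHat2 2.0.3, Cuffdiff and the mm9 build were used. The version of Cuffdiff, the annotation, the scaling between libraries and the use of strand were not given in the sources used here. Per the labels' protocols, TruSeq v2 libraries were primed with oligo(dT). Each table was fitted alone with limma 3.58.1 in R 4.3.3 (linear model on log2(FPKM + 1), pseudocount 1, moderated variance with trend, two-sided, no replicate block, Benjamini-Hochberg over all genes tested), after a test on simulated data. Shares and paralogue ratios were compared with exact two-sided permutation tests.

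The members and gene lists were chosen with earlier results of these data known. Genes named are the 5 largest and 5 smallest called changes per experiment, the stalk genes, called MDM2 binders and paralogues, the 3 largest and 3 smallest differences between experiments that passed, genes called in opposite directions, and the 3 smallest p-values in each other list. Other genes named, among them Rps3a, Rps27, Rpl34, Rps19, the genes that did not pass and further list members, were chosen after their values were seen. Promoter sequences were from RefSeq, GRCm38.p6, matched by symbol, and a gene with several starts counted as holding a motif if any start did. Transcript lengths were medians of an annotation of another build. Alternatives were another pseudocount, other filters, quantile, TPM and size factor scaling, a replicate block, a spread shared over 12 libraries and leaving out each replicate. Without counts, no counting interval was computed. Of the listed genes, 1 is not reported here and was left out of its lists.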

Additional observations from a re-analysis of the deposited data

Results flagged for a closer look

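Named genes whose change with PRDM16 differed between experiments are listed here by the limma test of that difference, which covered 9488 genes in 3 contrasts. Relative to the E2A-HLF cotransduction, the log2 change in the MLL-AF9 cotransduction was larger by 1.004 for Rps20, 0.98 for Rpl14, 0.85 for Rplp2, 0.21 for Rplp1 and 0.18 for Rps3, and for Rpl7l1 the difference was -0.55. Relative to the stable cells it was larger by 0.90 for Rpl14, 0.83 for Rps20, 0.67 for Rpl10a, 0.19 for Rpl7a and 0.19 for Rpl27a, and for Rpl7l1 the difference was -0.34. For E2A-HLF relative to the stable cells the difference was 0.22 for Rpl7l1, -0.23 for Rps16 and -0.28 for Rps28. Rps16 and Rps28 were called neither with E2A-HLF nor in the stable cells. Under quantile normalization the differences of Rplp1 and Rpl7a took the other sign. Groups of 2 libraries were too small to look for a library far from its group.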

How the results depend on the processing

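For the MLL-AF9 cotransduction, calls of higher genes came to 41 without a filter on low values and 37 under quantile normalization, which gave 4 lower genes and medians of 0.15 (large) and 0.14 (small). Over all genes 6926 were called without the filter and 7651 under quantile normalization, 50.4% and 51.1% of them higher. TPM gave medians of 0.31 and 0.35 while the median of all genes shifted by -0.11, so that the members stood 0.41 and 0.45 above it. Dropping the paralogues and Rps19bp1 left 0 lower genes. Leaving out 1 replicate gave 45 to 79 higher and 1 to 3 lower, with medians of 0.41 to 0.44 and 0.43 to 0.49. The share difference was 5.49 points without the 10 most abundant other genes, 3.69 without neutrophil granule and mast cell genes, and 5.62 to 5.87 with 1 replicate left out. Quantile normalization reversed Rpl15 (-0.0099), Rpl7a (-0.0094) and Rplp0 (-0.0021), Rplp0 in the stable cells (-0.050), and the differences of Rplp1 (-0.087, against E2A-HLF) and Rpl7a (-0.028, against stable cells). For E2A-HLF, lower calls came to 8 under quantile normalization, 5 under TPM (2 higher), 9 with an equal sum outside the members (2 higher, large median -0.053) and 2 with a shared spread (2 higher). Without paralogues and Rps19bp1, 0 were higher. Leaving out 1 replicate gave 0 to 2 higher, 0 to 1 lower, medians of -0.047 to 0.037 and -0.080 to 0.0090, and share differences of -0.9998 to -0.497. For the stable cells, 1 gene was higher under quantile normalization, TPM, size factors, the replicate block or an equal sum. Large and small medians were 0.033 and 0.027 under quantile normalization and 0.042 and 0.041 under TPM. The small median was 0.075 without a filter, 0.065 under size factors, 0.054 with an equal sum and 0.088 without paralogues and Rps19bp1. Leaving out 1 replicate gave 0 to 1 higher, medians of 0.047 to 0.12 and 0.037 to 0.12 and share differences of 0.335 to 1.03. Members that differed between experiments came to 40, 34 and 12 under quantile normalization, against 68, 60 and 3, and for E2A-HLF against stable cells to 14 under TPM and 1 with the replicate block. The block kept 70 of the 72 higher genes of the MLL-AF9 cotransduction (without Rpl15 and Rpl31), 71 in all, and lost Rpl7l1 in E2A-HLF. Same-numbered libraries correlated in their deviations at 0.067, 0.289 and 0.319, over 2 pairs each, so the numbers were not taken as pairs. Over all genes, calls in the stable cells numbered 673 (66.0% higher), against 104 (21.2%) without a filter, 803 (51.6%) under quantile normalization, 1262 (34.2%) under TPM, 927 (52.6%) under size factors, 1020 (44.3%) with an equal sum and 299 with a shared spread, and 65 to 139 with 1 replicate left out. In E2A-HLF 51.8% of calls were higher, against 41.8% with an equal sum. The cause of these shifts was not tested. The 2 libraries a group, the unknown depth and reads shared with near-identical copies limit precision.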
